A study of Brassica napus with 6 samples.

Results

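The rows described here are the entries of a Brassica napus gene count table whose identifier begins with ENSRNA. They were chosen by their measured counts: a row is included if it had 10 or more counts in at least 3 of the 6 RNA sequencing libraries. The rule kept 280 of the 3533 ENSRNA rows, in a table of 104573 rows in all. Of the other ENSRNA rows, 1958 had no count in any library and 1295 had counts that did not reach the rule.

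The libraries come from microspore cultures of oilseed rape, an allotetraploid with A and C genomes, and all are from line DH-4079 of cultivar Topas. The VM group holds 3 untreated libraries of vacuolated microspores from day 0. The HS4d group holds 3 libraries of heat shock cultures, kept at 32 °C up to day 4, whose cell type is labelled microspores and proembryos. By that label each HS4d culture mixes cell types, and no unheated day 4 culture is among the samples, so effects of heat, of days in culture and of development cannot be told apart. In such bulk samples, fewer cells of a kind and less RNA per cell cannot be told apart either. The series calls its replicates biological.

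Microspores are immature male gametophytes, and a heat treatment can divert them from pollen formation towards embryogenesis, which is the change the series set out to profile. In Ensembl's plant annotations the prefix ENSRNA is used for genes of non-coding RNA. Genes of that kind include transfer and ribosomal RNAs for translation, small nuclear RNAs for splicing, small nucleolar RNAs that guide RNA modification, the RNA of the signal recognition particle and microRNA precursors. The files do not say to which of these any row belongs, and a table of RefSeq genes for the Da-Ae assembly held 0 of the 280 identifiers, so rows are given here by identifier, with no class, role, position or sequence. The label of the rows as non-coding RNA rests on the prefix alone and could not be checked against the data. The labels describe total RNA and non-directional libraries, and whether short RNAs were retained is not given in the sources used here.

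Total counts ran from 29144220 to 39558658 per library. Across all tested rows, HS4d replicate 3 was unlike the other HS4d libraries (correlation of log2 CPM, which are counts scaled to a common library size, of 0.623 and 0.596 with HS4d replicates 1 and 2, which correlated at 0.965), so results that rest on it are given with and without it. The scaling also matters. The TMM factors, which adjust library size for composition, were 1.37 to 1.43 in VM but 0.55, 0.567 and 1.18 in HS4d replicates 1, 2 and 3. After that scaling the effective library sizes were 43978265 to 46950347 counts in VM and 16026462, 22440744 and 37851218 counts in HS4d replicates 1, 2 and 3. A count of 10 therefore equalled 0.213 to 0.227 TMM-scaled CPM in VM, but 0.624, 0.446 and 0.264 in the HS4d libraries. Where the direction of a value turns with the scaling, both are given.

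The 280 rows were a trace of each library. Their share of all counts was 0.0979% ± 0.00457 in VM and 0.0745% ± 0.0081 in HS4d (SD, n = 3 each). The VM libraries gave 0.0939%, 0.0971% and 0.103%, and the HS4d libraries gave 0.0657%, 0.0763% and 0.0816%, so each heated culture lay below each VM library by share of the total. On the TMM scale the order was turned in HS4d replicates 1 and 2: the rows summed to 677, 679 and 754 CPM in VM, to 1195 and 1345 CPM in those libraries and to 689 CPM in HS4d replicate 3. No test was made on these sums, because the rows had been selected on their counts. The rows carried 86.4% to 93.2% of the counts of all ENSRNA entries in each library.

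A single row supplied about as many counts as all the others together. ENSRNA049451538 had 15171, 16799 and 20016 counts in VM replicates 1, 2 and 3 and 10304, 16633 and 11689 in HS4d replicates 1, 2 and 3. That was 51.0% to 58.3% of the counts of the 280 rows in VM and 44.8% to 55.1% in HS4d. Its level was 530 ± 62.6 CPM of the library total in VM and 380 ± 35.7 CPM in HS4d (SD, n = 3 each), with every HS4d library below every VM library. On the TMM scale it was 382 ± 51.0 CPM in VM and 583 ± 239 CPM in HS4d (SD, n = 3 each), and the groups overlapped, with HS4d replicate 3 lowest of all at 312 CPM. The row was not called changed (edgeR quasi-likelihood test, log2 fold change HS4d against VM 0.61 ± 0.69 SE, adjusted p = 0.522), and the fold was -0.44 with library size alone. Without HS4d replicate 3 it was called higher (log2 fold change 0.90 ± 0.24 SE, edgeR adjusted p = 0.00725).

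The next rows by VM level were much lower and showed the same dependence on scale. ENSRNA049479059 had 2894, 2519 and 2414 counts in VM and 1103, 1644 and 1721 in HS4d. By library total all its HS4d values were below VM (44.4 ± 8.37 against 80.1 ± 9.96 CPM, SD, n = 3 each), while on the TMM scale the groups overlapped (64.5 ± 16.2 against 57.6 ± 7.26 CPM, SD, n = 3 each; edgeR adjusted p = 0.715). ENSRNA049476782 had 1468, 1295 and 2047 counts in VM and 702, 880 and 911 in HS4d. It too lay lower in every HS4d library by library total and overlapped on the TMM scale, where its log2 fold change was 0.06 ± 0.35 SE (edgeR adjusted p = 0.907). ENSRNA049479067 had 721, 609 and 678 counts in VM and 310, 563 and 448 in HS4d. Its TMM-scaled log2 fold change was 0.39 ± 0.33 SE (edgeR adjusted p = 0.395), and -0.63 with library size alone. Neither scaling called any of these 3 rows, while leaving out HS4d replicate 3 called ENSRNA049479067 higher (log2 fold change 0.63, edgeR adjusted p = 0.00527).

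Among the rows that were in the 6 highest by mean CPM in VM or in HS4d, 7 in all, ENSRNA049466886 and ENSRNA049457849 rose on either scale. ENSRNA049466886 had 426, 417 and 416 counts in VM, with the smallest VM spread of these 7 rows, and 1159, 1873 and 703 in HS4d. These are 9.25 ± 0.416 and 60.2 ± 36.2 TMM-scaled CPM (SD, n = 3 each). The HS4d libraries all lay above VM, and HS4d replicate 3, at 18.8 CPM, was closer to VM than its partners at 75.5 and 86.2 CPM. The log2 fold change was 2.70 ± 0.59 SE (edgeR adjusted p = 0.0220), 1.54 with library size alone (edgeR adjusted p = 0.0327) and 3.11 without HS4d replicate 3 (edgeR adjusted p = 3.02e-08). As a share of the 280 rows' own counts, which needs no scaling, it went from 1.21% to 1.43% in VM to 6.05%, 6.20% and 2.69% in HS4d. The call was lost when any VM library, HS4d replicate 1 or HS4d replicate 2 was left out. It was also lost with all libraries when replicate number was added to the fit (log2 fold change 2.45).

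ENSRNA049457849 varied less among the heated cultures. It had 128, 106 and 155 counts in VM and 402, 439 and 505 in HS4d, or 2.86 ± 0.574 and 20.0 ± 6.36 TMM-scaled CPM (SD, n = 3 each). The groups did not overlap on either scale, and the row was called higher in all 16 alternative fits. Its log2 fold change was 2.80 ± 0.35 SE (edgeR adjusted p = 0.00632), and 1.81 with library size alone (edgeR adjusted p = 0.0143). On the TMM scale its summed counts were 7.67 times the VM level in HS4d replicates 1 and 2 and 4.68 times in HS4d replicate 3. By library totals the order turned, with 3.08 times and 3.98 times. ENSRNA049468110, named after its values were seen, was the only other of the 280 rows called in the same direction in all fits. It had 61, 83 and 82 counts in VM and 316, 317 and 306 in HS4d, or 14.5 ± 6.21 TMM-scaled CPM in HS4d against 1.655 ± 0.229 in VM (SD, n = 3 each), with no overlap. Its log2 fold change was 3.12 ± 0.41 SE, given without a p-value because the row was chosen for its calls. The fits without VM replicate 1, 2 or 3 held only 3, 2 and 2 calls among the ENSRNA rows. Few rows could therefore be called in all fits, and the like number for the whole table was not worked out.

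ENSRNA049451858, the sixth row by VM level, showed a divided HS4d group. It had 270, 341 and 224 counts in VM and 11, 36 and 215 in HS4d replicates 1, 2 and 3. HS4d replicate 3 (5.74 TMM-scaled CPM) thus lay inside the VM range of 4.92 to 7.28 CPM, while its partners were at 0.717 and 1.66 CPM. The row was not called with all libraries (log2 fold change -1.16 ± 0.74 SE, edgeR adjusted p = 0.268) and was called lower without HS4d replicate 3 (log2 fold change -2.32 ± 0.34 SE, edgeR adjusted p = 0.000158).

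**Figure D1:**
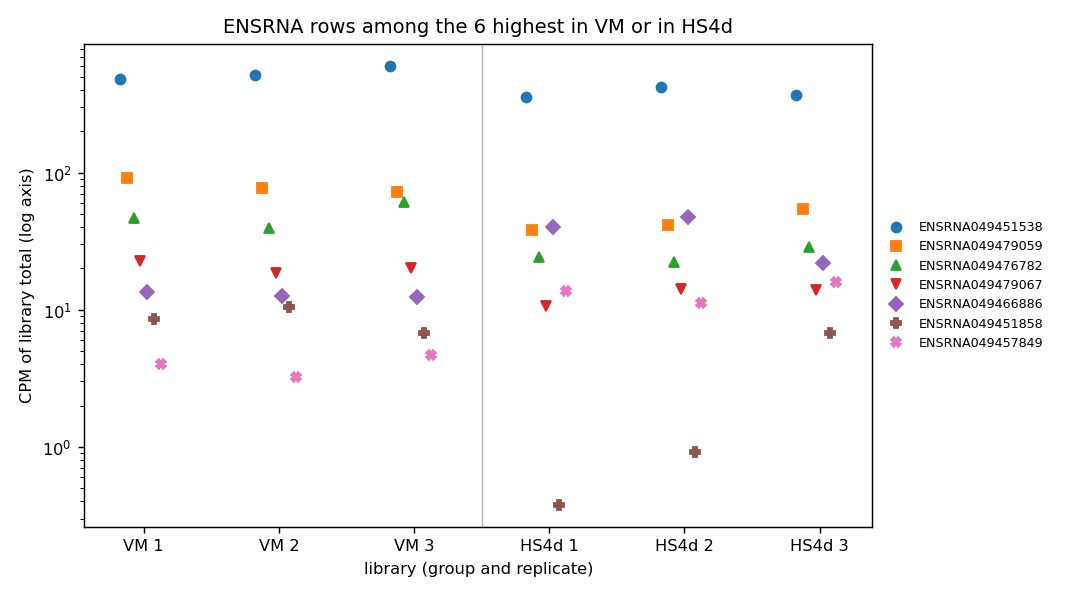
Level in each library of the 7 ENSRNA rows among the 6 highest by mean CPM in VM or in HS4d, as CPM of the library total on a log axis, 1 symbol per row. ENSRNA049451538 lies between 353.6 and 599.7 CPM, ENSRNA049466886 and ENSRNA049457849 are higher in all HS4d libraries, and ENSRNA049451858 is low in HS4d 1 and 2 but not in HS4d 3.

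Below these rows the levels fell off steeply. The median row had a mean of 20.5 counts per library, against 191.7 for the 56949 rows tested in the whole table. A mean under 20 counts was found for 136 rows, 20 to under 50 for 97, 50 to under 200 for 39 and 200 or more for 8. Counting error alone gives a count of 20 an exact 95% Poisson interval of 12.2 to 30.9, and a count of 10 an interval of 4.8 to 18.4, so single low values say little. Only 4 rows averaged 10 TMM-scaled CPM or more in VM and 9 in HS4d. The median row count was 21, 23 and 20 in VM replicates 1, 2 and 3 and 10, 17 and 19 in HS4d replicates 1, 2 and 3.

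The way a row met the rule differed between the groups. In all 6 libraries, 94 rows had at least 10 counts. A further 105 rows had 10 or more in all VM libraries but not in all HS4d libraries, 24 had the opposite, and 57 reached the rule through a mixture of libraries. VM libraries had 233 to 248 rows at 10 or more counts, whereas HS4d replicates 1, 2 and 3 had 144, 190 and 219. The effective library sizes given above were likewise smallest in HS4d replicates 1 and 2, and their part in these numbers was not tested. Within HS4d, 59 rows reached 10 counts in replicate 3 and in neither partner, and 19 rows did so in both partners and not in replicate 3. No row was at 0 in every VM library, and 3 rows were at 0 in every HS4d library. A row that entered through 1 group only was high there by selection, so its direction is a description.

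Around the limit of the rule, the values were close. ENSRNA049450177, just inside, had 16, 15 and 10 counts in VM and 0 in each HS4d library. ENSRNA049460525, also just inside, had 15, 12 and 10 in VM and 2, 1 and 3 in HS4d. ENSRNA049475980 fell just outside, with 0, 5 and 1 counts in VM and 64, 89 and 9 in HS4d. ENSRNA049449213, also outside, had 4, 9 and 4 in VM and 19, 26 and 7 in HS4d. The rule therefore left out rows that were well above 10 counts in HS4d replicates 1 and 2 only, and in all 283 ENSRNA rows reached 10 counts in just 1 or 2 libraries.

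Within VM the replicates were fairly close. The SD of log2 CPM over the 3 libraries had a median of 0.422 over the 280 rows, against 0.193 over all tested rows. The rows also had fewer counts than most: among rows with a mean under 20 counts the medians were 0.488 for ENSRNA and 0.456 for all tested rows, and at 20 to under 50 counts they were 0.421 and 0.395. At 50 or more counts they were 0.282 and 0.159, in a class whose rows were not matched for level. The rows ranged from 0.01 to 2.06, and 20 of them had an SD of 1 or more. By this SD, VM replicate 3 was the less typical library. The median fell to 0.277 without it and was 0.358 and 0.408 without VM replicates 1 and 2. By correlation across the rows VM replicate 3 did not stand apart, at 0.824 and 0.871 with VM replicates 1 and 2, which correlated at 0.868.

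The VM libraries are separate samples, whose counts usually vary by more than counting error, and the size of that excess is given here as a description. For the 247 rows with 30 or more counts over the group, the chi-square of the 3 counts against the scaled library sizes, per degree of freedom, had a median of 2.46, where counting error alone gives 0.693. It exceeded 3 in 109 rows (44.1%), where counting error alone gives 4.98%. ENSRNA049466886 stood at 0.83, while ENSRNA049451538, with counts from 15171 to 20016, was at 311.

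Within HS4d the spread was wide, and it was far smaller without replicate 3. The median SD of log2 CPM was 0.839 for the 280 rows and 0.821 for all tested rows, and 112 of the 280 had an SD of 1 or more. By mean count the ENSRNA medians were the lower ones: 0.888 against 0.992 under 20 counts, 0.839 against 1.02 at 20 to under 50, and 0.648 against 0.769 at 50 or more. With replicates 1 and 2 alone the medians were 0.336 and 0.228. For the 169 rows with 20 or more counts over those libraries, the median chi-square was 1.10, where counting error alone gives 0.455 with 1 degree of freedom, and 50 rows (29.6%) exceeded 3, where counting error alone gives 8.33%. For the 199 rows with 30 or more counts over all HS4d libraries the median was 6.66 and 155 rows (77.9%) exceeded 3.

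**Figure D2:**
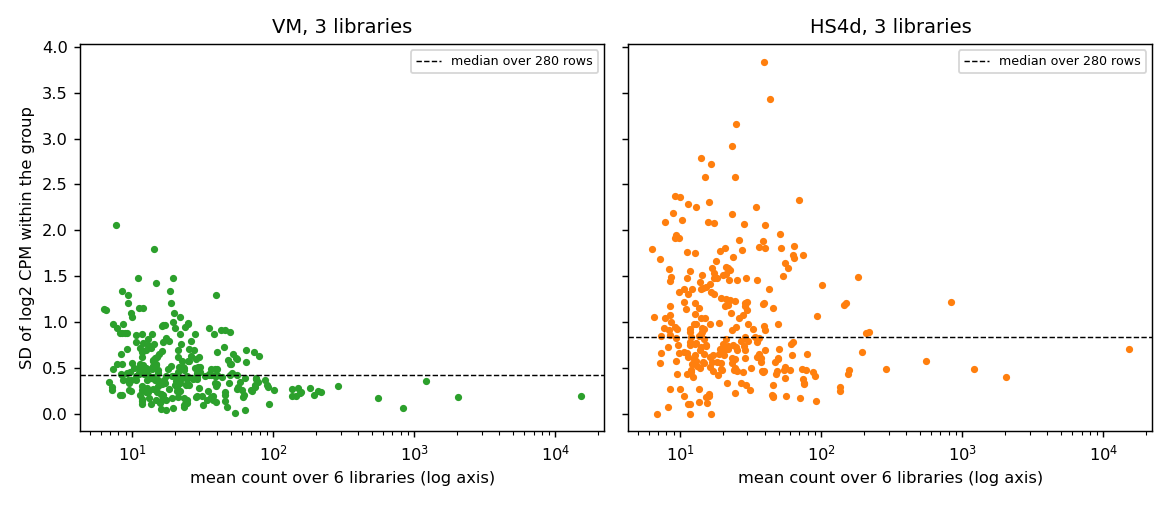
SD of log2 CPM (TMM-scaled, prior count 1) over the 3 libraries of each group against the mean count of the row, 1 point per ENSRNA row, with the median as a dashed line (0.422 in VM and 0.839 in HS4d). The points lie higher in HS4d, where the widest row reaches 3.84, than in VM, where it reaches 2.06.

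Pairs of libraries show the same pattern. Across the 280 rows, the Pearson correlation of log2 CPM was 0.868, 0.824 and 0.871 between VM libraries and 0.891 between HS4d replicates 1 and 2. HS4d replicate 3 correlated at 0.527 and 0.548 with its partners and at 0.545 to 0.599 with the VM libraries. HS4d replicates 1 and 2 correlated at 0.379 to 0.499 with VM. These are descriptions across rows that share libraries. Over all tested rows, which had more counts, the VM libraries correlated at 0.975 to 0.98, and the part of low counts in this gap was not tested. Between 76.8% and 84.6% of the rows were within 2-fold of each other in a pair of VM libraries, 75.7% in HS4d replicates 1 and 2, and 38.9% and 36.8% when replicate 3 was paired with HS4d replicates 1 and 2. HS4d replicate 3 and VM were within 2-fold for 54.3% to 62.5% of the 280 rows, against 49.34% to 51.35% of all tested rows. For HS4d replicate 3 and its partners, 41.15% and 39.63% of all tested rows were within 2-fold.

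**Figure D3:**
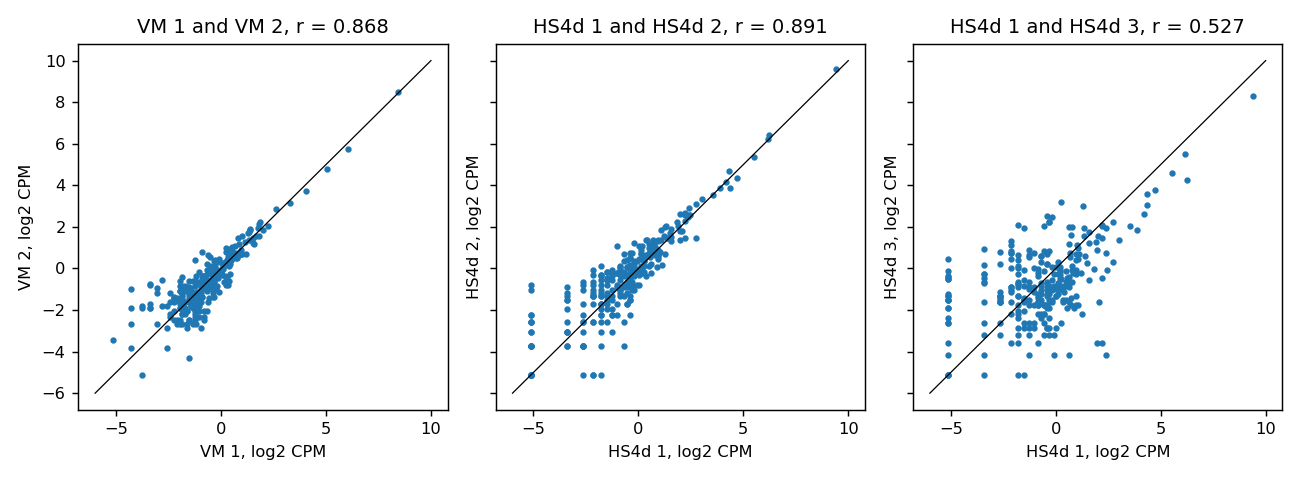
Log2 CPM (TMM-scaled, prior count 1) of the 280 ENSRNA rows in pairs of libraries, with the line of equality and Pearson's r across rows. VM 1 and 2 (0.868) and HS4d 1 and 2 (0.891) lie along the line, HS4d 1 and 3 (0.527) scatter widely, and columns of points at the left are rows with 0 or few counts.

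HS4d replicate 3 differed from its partners in both directions. It lay at least 4-fold above the mean of HS4d replicates 1 and 2 on the log2 scale in 43 rows and at least 4-fold below in 40. The median gap was 1.23 on the log2 scale, against 0.47 between replicates 1 and 2 and 0.74 between replicate 3 and the VM mean. It was nearer to the VM mean in 67.1% of the 280 rows, against 55.0% of all tested rows. It lay between the 2 means in 102 rows, above both in 84 and below both in 94.

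Among rows with a mean of at least 30 counts, those with the widest departures of HS4d replicate 3 in each direction show both kinds. ENSRNA049448256 had 7, 8 and 13 counts in VM and 80, 127 and 1 in HS4d replicates 1, 2 and 3. ENSRNA049462785 had 17, 18 and 29 counts in VM and 60, 134 and 2 in HS4d. In both rows the partners were above every VM library and replicate 3 was below. ENSRNA049464072 had 33, 33 and 18 counts in VM and 5, 6 and 144 in HS4d. ENSRNA049450379 had 35, 60 and 32 counts in VM and 4, 16 and 158 in HS4d. In these rows replicate 3 was the highest library. None of the 4 rows was called with all libraries (edgeR adjusted p from 0.0863 to 0.486). The rows were chosen for their gap within HS4d, which favoured that outcome, so no conclusion is drawn from it. Without HS4d replicate 3 the first pair had fitted log2 fold changes of 4.71 and 3.41, given with no test because of the same choice.

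Between the groups, 39 of the 266 rows that passed the filter on low counts changed (14.7%), 25 higher and 14 lower in HS4d (edgeR quasi-likelihood test over all rows, Benjamini-Hochberg adjusted p under 0.05). The other 14 of the 280 rows were removed by that filter. Over all tested rows 28.7% were called, 17.3% higher and 11.4% lower, against 9.4% and 5.26% of the ENSRNA rows. All 39 were changes of at least 2-fold, which 27.5% of all tested rows showed. By mean count, 10.7% of the 122 tested rows under 20 counts, 16.5% of the 97 rows at 20 to under 50 and 21.3% of the 47 rows at 50 or more were called. In the whole table these classes had 31.0%, 30.4% and 28.1%. Without HS4d replicate 3, 136 rows (51.1%) were called, 89 higher (33.5%) and 47 lower (17.7%), against 73.0% of all tested rows, 35.5% higher and 37.5% lower. All 39 calls were in the same direction in that fit. Leaving out VM replicate 1, 2 or 3 left only 3, 2 and 2 calls, and leaving out HS4d replicate 1 or 2 left 13 and 20. In the whole table, the 16327 calls among 56949 tested rows fell to 4405, 3014 and 3565 without VM replicate 1, 2 or 3. They fell to 7957 and 10599 without HS4d replicate 1 or 2.

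The direction of the calls depended on the scaling and on how rows met the rule. With library size alone, 12 rows were higher (4.51%) and 25 lower (9.4%), against 9.2% and 18.1% of all tested rows, and the median log2 fold change of the ENSRNA rows moved from 0.42 to -0.47 while that of all tested rows moved from 0.07 to -0.78. The 12 higher rows were all among the 25 TMM rises, and the 14 TMM falls were all still called. The fold changed sign between the scalings in 101 of the 266 rows, none of them among the 39. Of the 94 rows with 10 or more counts in every library, 14 rose (14.9%) and 1 fell (1.06%), against 14.9% and 7.71% of all tested rows with such counts. The other 13 falls were rows that had entered through VM, and the other 11 rises had entered through HS4d, so their directions are descriptions. Of the 57 rows with a mixed route, 47 were tested and none was called. The share of calls among rows of the whole table with such a route was not worked out.

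The rises had fitted log2 fold changes of 1.37 to 7.2 with a median of 2.70, and HS4d replicate 3 was nearer to VM than to its partners in 11 of the 25. These rows were called with that library in the fit, so its place in them is a description. ENSRNA049477121 had the largest rise, with 2, 0 and 1 counts in VM and 18, 19 and 344 in HS4d. All HS4d values were above VM, but most of the counts were those of replicate 3. On the TMM scale its summed counts were 227 times as high in HS4d as in VM (exact 95% interval for counting error 77.1 to 1110), and 43.8 times as high in HS4d replicates 1 and 2 (13.9 to 222). By library totals these ratios were 124 (42.0 to 602) and 17.6 (5.57 to 89.1). ENSRNA049472744 came next under the rule for named rows, with 14, 14 and 4 counts in VM and 79, 122 and 62 in HS4d. Its summed counts on the TMM scale were 22.3 times the VM level in HS4d replicates 1 and 2, while replicate 3 stood at 6.99 times. By library totals they were 8.95 and 5.94 times the VM level. Both rows had met the rule through HS4d, where they are high, so no p-value is given for their rise.

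The falls had a median fitted log2 fold change of -2.79, against 2.7 for the rises. For the 12 that had HS4d counts, the fitted log2 fold changes ran from -1.75 to -3.77. The other 2 rows had 0 counts in every HS4d library. Set against a floor of 3 counts over the 3 HS4d libraries, they were at least 13.2-fold and 18.5-fold lower in HS4d on the TMM scale, and at least 24.3-fold and 33.9-fold lower by library totals. HS4d replicate 3 was nearer to VM than to its partners in 1 of the 14 falls, which were likewise called with that library in the fit. ENSRNA049451217 had 79, 72 and 71 counts in VM and 1, 7 and 5 in HS4d. Its VM libraries agreed closely, at 1.63 ± 0.146 TMM-scaled CPM (SD, n = 3), and the HS4d libraries at 0.0652, 0.322 and 0.134 CPM were all far below, with replicate 3 between its partners. The fitted log2 fold change was -3.19 ± 0.59 SE. ENSRNA049474477 had 124, 108 and 101 counts in VM and 4, 17 and 14 in HS4d, again with replicate 3 between its partners. Its fitted log2 fold change was -2.36 ± 0.51 SE. Both falls were larger with library size alone, at log2 fold changes of -4.11 and -3.29. Both rows had met the rule through VM, where they are high, so these falls too are given without a p-value.

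**Figure D4:**
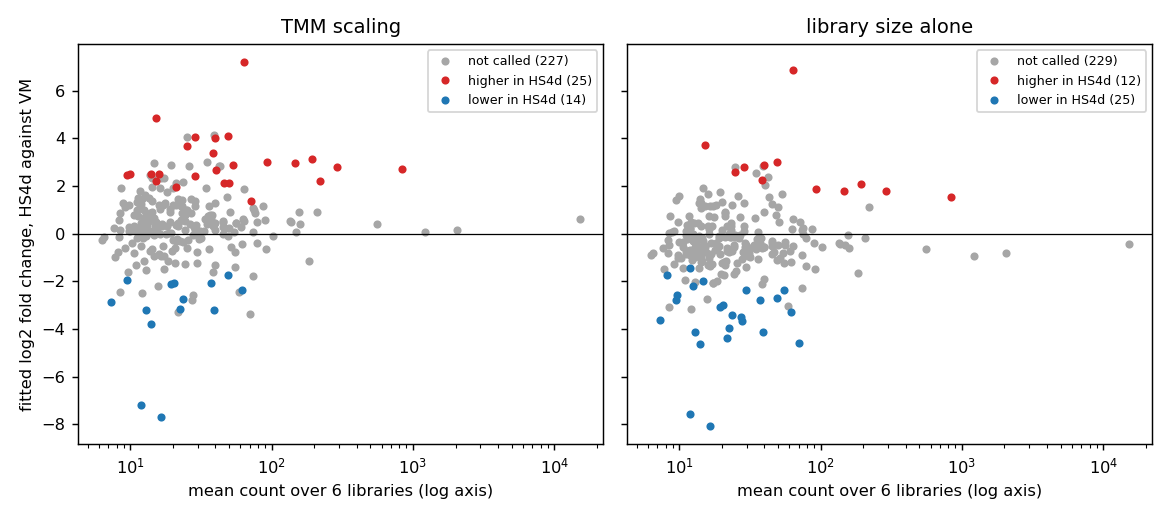
Fitted log2 fold change of HS4d against VM for the 266 tested ENSRNA rows against their mean count, with TMM scaling (left, 25 higher and 14 lower called) and with library size alone (right, 12 higher and 25 lower called). The whole cloud lies lower on the right, and ENSRNA049451538, at the far right of each panel, moves from 0.61 to -0.44.

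**Figure D5:**
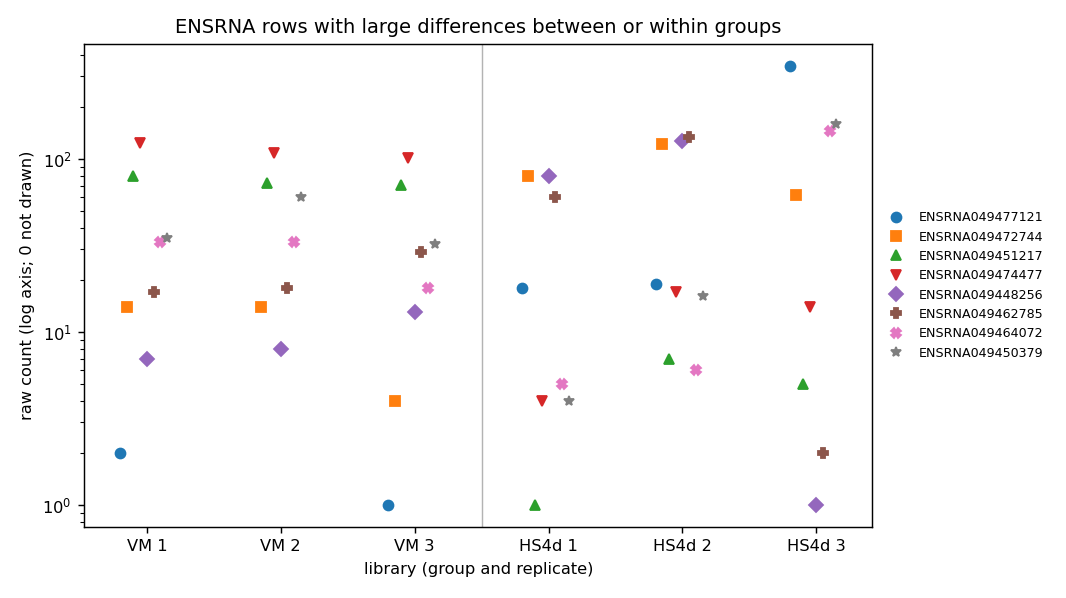
Raw counts per library, on a log axis, 1 symbol per row (the 0 of ENSRNA049477121 in VM 2 is not drawn). All are ENSRNA rows with a mean of at least 30 counts. Among such rows they were named for the largest rises and falls or the widest gaps in each direction between HS4d 3 and its partners. ENSRNA049451217 and ENSRNA049474477 are low in all HS4d libraries, whereas ENSRNA049448256 and ENSRNA049462785 are high only in HS4d 1 and 2 and ENSRNA049464072 and ENSRNA049450379 only in HS4d 3.

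The rows called without HS4d replicate 3 were followed in that library. Of the 89 that were higher in HS4d replicates 1 and 2, replicate 3 was above every VM library in 55.1%, within the VM range in 25.8% and below every VM library in 19.1%. Over all rows called higher in that fit the shares were 62.7%, 9.71% and 27.6%. Of the 47 that were lower, replicate 3 was below every VM library in 55.3%, within the range in 14.9% and above in 29.8%, against 65.6%, 10.8% and 23.6% over all rows called lower. The same VM libraries serve both sides of this comparison, and the VM range of a row with low counts is wide.

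By the simple measure of no overlap, 81 of the 266 tested rows (30.5%) had all HS4d libraries on the same side of all VM libraries on the TMM scale, 53 above and 28 below. This compares with 52.1% of all tested rows. By library total it was 93 rows (35.0%), 27 above and 66 below, compared with 58.6% of all tested rows.

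A few rows hardly varied over the 6 libraries on the TMM scale. ENSRNA049477914 was the steadiest with a mean of at least 30 counts, at 44, 36 and 39 counts in VM and 17, 22 and 29 in HS4d. Its TMM-scaled values were 0.876 ± 0.118 CPM in VM and 0.965 ± 0.172 CPM in HS4d (SD, n = 3 each), and the SD of log2 CPM over all libraries was 0.215. ENSRNA049479059, described above, followed with 0.284. ENSRNA049468883 had 58, 53 and 43 counts in VM and 24, 40 and 54 in HS4d, and ENSRNA049478818 had 74, 64 and 51 in VM and 30, 36 and 81 in HS4d, with SDs of 0.335 and 0.339. This steadiness belongs to the TMM scale: by library total ENSRNA049477914 was lower in every HS4d library, at 0.682 ± 0.195 against 1.22 ± 0.152 CPM (SD, n = 3 each). None of the 4 was called with either scaling. They were chosen for a low SD over all 6 libraries, so the lack of a call on the TMM scale adds nothing to their steadiness.

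Among rows with a mean of at least 30 counts, the 2 with the widest spread within VM had low VM counts. ENSRNA049448827 had 17, 10 and 2 counts in VM and 102, 60 and 46 in HS4d. It was higher in every HS4d library (fitted log2 fold change 4.01 ± 0.98 SE), the group through which it met the rule. ENSRNA049477752 had 4, 19 and 8 counts in VM and 10, 16 and 153 in HS4d, with most of them in HS4d replicate 3 (fitted log2 fold change 3.02 ± 0.98 SE). It too had met the rule through HS4d.

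No 2 of the 280 rows had the same counts in all 6 libraries, as rows counted from the same reads would. In identifier order, 40 neighbouring pairs of rows differ by 10 or less in the identifier's number, and these did not share 1 pattern. ENSRNA049479059 was above its neighbour ENSRNA049479067 in every library, with 4.01, 4.14 and 3.56 times its counts in VM and 3.56, 2.92 and 3.84 times in HS4d. ENSRNA049474477 had 6.2, 2.7 and 2.2 times the counts of its neighbour ENSRNA049474483 in VM but 0.16, 0.378 and 0.125 times in HS4d. ENSRNA049451853 had 0.459, 0.378 and 0.375 times the counts of ENSRNA049451858 in VM, and 2.64, 1.53 and 0.228 times in HS4d replicates 1, 2 and 3. Such ratios within a library need no scaling. Libraries that do not mark strand, and close copies in the A and C genomes, can divide or merge reads among rows, which these counts cannot reveal.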

How the data were processed

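The submitters' processing notes name fastp 0.22.0, HISAT2 and DESeq2. They and the other sources used here do not give the counting program, genome build or annotation. The authors deposited raw counts per row for 6 libraries. They also deposited values on a log2-like scale from a variance-stabilising transformation (VST), which in the copy used here have columns for 5 libraries (not HS4d replicate 3) and served only as an alternative. Counts were analysed in R 4.3.3 with edgeR 4.0.16, with DESeq2 1.42.0 and limma 3.58.1 as alternatives. Rows of the whole table were kept by filterByExpr (minimum count 10) and scaled by TMM. HS4d was compared with VM by edgeR's quasi-likelihood test without further covariates, and p-values were adjusted by Benjamini-Hochberg over all 56949 rows. A row is called at an adjusted p under 0.05. A standard error is the absolute log2 fold change over the root of F. Log2 CPM used a prior count of 1. The test was also run on simulated counts, in which only rows with a mean over 1 CPM were changed and no library stood apart as HS4d replicate 3 does. Of the 280 rows, 61 in VM and 96 in HS4d averaged 1 TMM-scaled CPM or more. That run therefore does not vouch for the calls among these rows. Intervals cover counting error only.

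The rows and the rules below were chosen with earlier results of these data known. Named rows are the 2 largest rises and falls (called, mean of at least 30 counts, no overlap), the 6 most abundant rows in each group, and, at a mean of at least 30 counts, the 4 steadiest rows, the 2 in which HS4d replicate 3 lies farthest above its partners and the 2 in which it lies farthest below, and the 2 with the widest VM spread, besides the rows next to the rule's limit. Identifier neighbours of named rows were chosen after their values were seen.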

Additional observations from a re-analysis of the deposited data

How the results depend on the processing

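The count of called ENSRNA rows moved by over 1.5 times with several choices, from 39 with all libraries (25 higher, 14 lower, all 39 at least 2-fold). Leaving out 1 library gave 2 to 136 calls, 2 to 89 of them higher, 0 to 47 lower and 2 to 124 at least 2-fold, with the highest of each without HS4d replicate 3. In the whole table the range was 3014 to 41585 calls, again highest without HS4d replicate 3. With the filter also recomputed without that library there were 128 calls, 79 higher, 49 lower and 119 at least 2-fold. The whole table then had 44587 calls among 61116 rows. The DESeq2 Wald test gave 74 calls, 52 higher, 22 lower and 72 at least 2-fold. It called 24526 of 56949 rows in the whole table. The deposited VST values, with no HS4d replicate 3, gave under limma 118 calls, 68 higher, 50 lower and 75 at least 2-fold. That fit called 50467 of 76486 rows in the whole table. The stricter filter, which tests fewer rows (94 of the 280), gave 16 calls, 15 higher, 1 lower and 16 at least 2-fold. Over all rows it called 8709 of 39943. Library size alone gave 12 higher and 25 lower, against 5241 and 10318 in the whole table. Same-numbered VM and HS4d libraries had correlations of deviations from their group means of -0.012, -0.035 and -0.036. The outlying HS4d replicate 3 weighs on every HS4d deviation, so these values cannot decide whether the libraries are paired. The replicate block gave 5 calls, 5 higher, 0 lower and 5 at least 2-fold. In the whole table it called 4666 of 56949 rows. Where edgeR called 0 falls, 17 to 20 rows had an unadjusted p under 0.05 and a negative fold (19 with the replicate block). RLE size factors, limma-voom, the rule's own filter and no filter kept all 4 counts within 1.5 times, at 29 to 41 calls. Those fits called 14380 to 16419 rows in the whole table. No row called both with all libraries and in an alternative differed in sign between them. Apart from the filters and fewer libraries, the cause of these shifts was not tested. For single named rows, 267 values kept their side of the threshold, 26 lost a call and 17 gained one. The summed share of counts was 0.0852% in VM and 0.0656% in HS4d for rows with 10 counts in each library, 0.0922% in VM with a limit of 20 counts, and 0.0287% and 0.0247% without the 5 rows with the most counts. The median SD of log2 CPM in VM was 0.338 with a prior count of 5, 0.317 for rows with 10 counts in each library, and 0.277 to 0.408 with 1 library left out. In HS4d it was 0.336 to 0.903 with 1 library left out, and lowest without replicate 3. The median row had a mean of 20.5 counts, and the part of depth in the calls was not tested.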
